A study of Mus musculus with 12 samples.

Results

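The transcripts described here are those of 41 genes of the lysosome and of the TFE family of transcription factors. The list was named by function and not by a threshold on values, but with earlier results of these data known. They were followed through 12 RNA-seq libraries of J774A.1 cells, a mouse macrophage line. Of the 41 genes, 40 had a row in both count tables, which share 16699 genes, and Cd63 was not analysed here. By role the 40 comprise 3 transcription factors, 7 membrane proteins, 10 proteases, 7 glycosidases, 5 proteins that handle lipid, progranulin and 7 subunits of the vacuolar proton pump (V-ATPase).

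The study compared wild-type (WT) cells with cells that lack ACAT1, the mitochondrial acetyl-CoA acetyltransferase that acts late in fatty acid oxidation, to ask how that pathway bears on gene expression in macrophages. Both genotypes were clonal lines grown from single cells, 3 different lines each. WT lines had received a Cas9-GFP vector without a guide, and ACAT1 KO lines the same vector with a guide to the fourth exon of Acat1. Cells of 3 lines per genotype were sequenced unstimulated and after 2 h with 100 ng/ml of LPS, the bacterial lipopolysaccharide that engages TLR4, which gave 4 groups of 3 libraries: WT unstimulated, ACAT1 KO unstimulated, WT LPS and ACAT1 KO LPS. The clones differ from each other as well as by genotype, so a difference between genotypes is one between 3 clones and 3 clones.

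Lysosomes are acidic organelles in which hydrolases break down protein, sugar chains and lipid that arrive by phagocytosis, endocytosis and autophagy. The V-ATPase pumps protons into the lumen, membrane proteins such as LAMP1 line it, and other membrane proteins move its products out. TFEB, TFE3 and MITF are related basic helix-loop-helix factors that bind a short E-box motif in the promoters of many lysosome genes, known as the CLEAR element. They are controlled in large part by phosphorylation through mTORC1 on the lysosome surface, which holds them in the cytoplasm. Macrophages, whose work is to engulf and digest, have many lysosomes.

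Totals ran from 56948593 to 167280149 counts per library. Acat1, the targeted gene, was lower in ACAT1 KO lines, its log2 difference from WT being -1.87 unstimulated (SE 0.124, n = 3 and 3 lines, edgeR adjusted p = 0.00876) and -2.08 after LPS (adjusted p = 7.87e-04), with 18.5 to 28.9 CPM in ACAT1 KO libraries against 65.0 to 108 CPM in WT libraries. CPM are counts scaled to a common library size by TMM normalization, on 1 scale over the 12 libraries. All 10 macrophage markers checked, Csf1r and Lyz2 among them, were listed in both tables and summed to 8810 to 11500 CPM per library, and no T cell or epithelial marker was listed in either. Among the macrophage markers Marco ran from 0.642 to 68.4 CPM. Of 4 B cell markers Cd79a was listed, at 0.0305 to 0.938 CPM. Of 4 endothelial markers Cdh5 (0.919 to 2.13 CPM) and Pecam1 (0.256 to 0.720 CPM) were listed in both tables and Kdr in 1. Of 4 fibroblast markers Col1a1 was listed in 1 table and Pdgfra in both. Pdgfra was at 1.14 to 1.67 CPM unstimulated, 5.53 to 6.48 CPM in WT LPS and 11.3 to 13.0 CPM in ACAT1 KO LPS libraries, and its part in the results below was not tested. The unstimulated libraries WT replicates 1 and 2 and ACAT1 KO replicate 2 stood apart: noncoding genes that lie within exons of the other strand took 0.0168 to 0.0247% of their counts and at most 0.00450% of the other 9. WT replicate 1 had also 9.32% of its counts in mitochondrial genes, against 2.14 to 4.04% elsewhere. A term for those 3 libraries was therefore fitted as an alternative, for the changes with LPS together with the line as a block.

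The CLEAR letters were looked for in RefSeq promoters of GRCm38.p6, from 250 bases before to 50 after each start, which were at hand for 35 of the 41 genes. Motif matches are shown because they are the sequence through which TFE factors are known to act, and each is a description of letters, not of binding. The E-box CACGTG was in the promoters of 11 of the 35 genes (31.4%), against 8.09% of all 27025 genes. Its longer form TCACGTGA, which reads the same on both strands and contains CACGTG, was in 6 of the 35 (17.1%), against 1.12% of all genes. Those 6 were Ctsa, Ctsd, Gla, Mcoln1, Atp6v0d1 and Atp6v1a, with 2 matches each in Ctsa and Gla. The variant TCACATGA, read on either strand, was in Ctss, Gla, Grn, Ppt1 and Tpp1, or 14.3% of the 35 against 1.15% of all genes. None of the 3 promoters of Tfeb, the 2 of Tfe3 or the 3 of Mitf held CACGTG or TCACATGA. The windows of 30 bases around TCACGTGA follow 5′ to 3′ on the strand of the gene, with those 8 letters in capitals.
Ctsa, first match (chr2:164833749-164833778, plus strand): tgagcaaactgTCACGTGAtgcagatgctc
Ctsa, second match (chr2:164833766-164833795, plus strand): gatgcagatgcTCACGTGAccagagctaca
Ctsd (chr7:142387908-142387937, minus strand): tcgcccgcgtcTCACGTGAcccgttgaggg
Gla, first match (chrX:134601215-134601244, minus strand): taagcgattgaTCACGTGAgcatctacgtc
Gla, second match (chrX:134601182-134601211, minus strand): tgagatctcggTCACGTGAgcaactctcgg
Mcoln1 (chr8:3500462-3500491, plus strand): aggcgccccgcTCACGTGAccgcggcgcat
Atp6v0d1 (chr8:105566050-105566079, minus strand): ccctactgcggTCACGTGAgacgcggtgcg
Atp6v1a (chr16:44139373-44139402, minus strand): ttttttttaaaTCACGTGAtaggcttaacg
The 6 genes moved in both directions with LPS: Gla and Atp6v1a rose in both genotypes and Mcoln1 fell in both, Atp6v0d1 rose in WT and Ctsd fell in ACAT1 KO cells, and Ctsa passed the test in neither.

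Levels of the 40 transcripts spanned more than 4 orders of magnitude. Per kilobase of exon, Ctsd, the aspartic protease cathepsin D, was highest in unstimulated WT cells at 849 CPM per kb ± 21.0 (SD, n = 3), and Ctsz, a carboxypeptidase, followed at 718 ± 84.8. The ranges of these 2 genes did not meet, at 825 to 864 and 661 to 815 CPM per kb. Ctss, Psap, Ctsb, Grn and Lamp1 came next, at mean levels from 553 down to 414 CPM per kb, and the ranges of Psap, Ctsb and Grn overlapped. The 3 TFE factors lay near the bottom, at 5.95 ± 0.217 for Tfe3, 3.97 ± 0.354 for Mitf and 3.07 ± 0.0941 CPM per kb for Tfeb. Ctsk and Atp6v0d2, which are the cathepsin and the V-ATPase subunit known from osteoclasts, were barely present at 0.0627 ± 0.0317 and 0.0570 ± 0.0288 CPM per kb. Ctsz was the highest of the 40 in the other 3 groups, reaching 1435 ± 59.5 CPM per kb in ACAT1 KO cells with LPS. The 40 genes together took 2.19% ± 0.124 of the counts in WT unstimulated, 2.33% ± 0.0704 in ACAT1 KO unstimulated, 1.95% ± 0.0550 in WT LPS and 2.11% ± 0.0320 in ACAT1 KO LPS libraries (SD, n = 3).

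**Figure D1:**
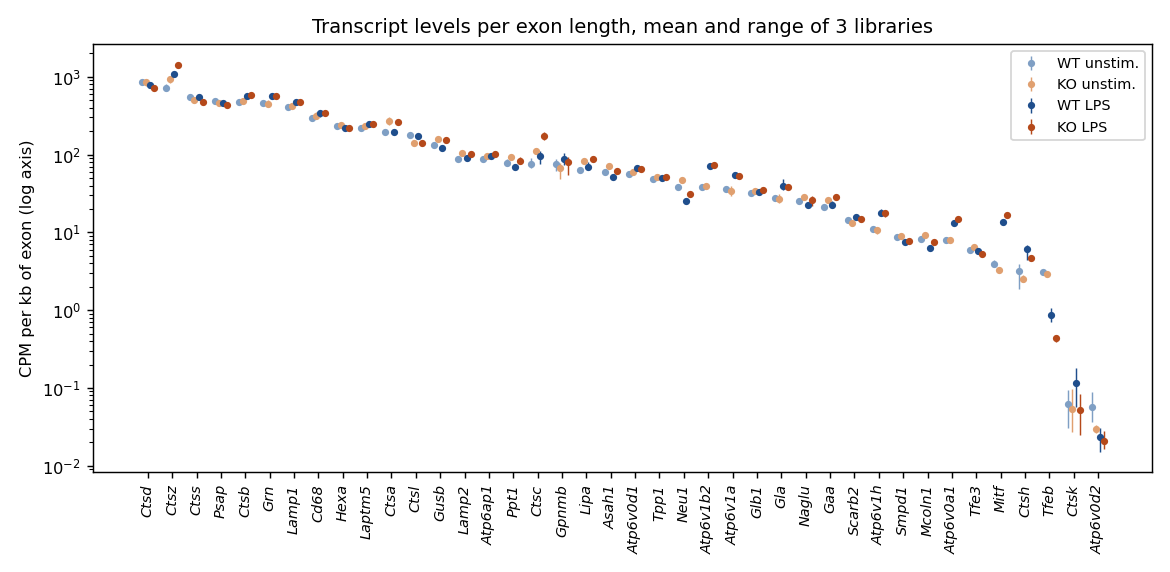
CPM per kb of exon (log axis) of the 40 transcripts, ordered by their mean in unstimulated WT cells; points are means and bars the range of 3 libraries in each of the 4 groups. Ctsd and Ctsz lead, and Mitf, Tfeb and the V-ATPase subunits Atp6v1b2, Atp6v1a, Atp6v1h and Atp6v0a1 show LPS groups apart from unstimulated ones.

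The first comparison asked how LPS changed lysosome transcripts within each genotype. The TFE factors moved most and in opposite directions, Tfeb down and Mitf up, while most V-ATPase subunits rose and hydrolases split. In WT cells 18 of the 40 genes passed an adjusted p of 0.05, with 12 higher and 6 lower, beside 57.4% of all 16535 genes tested (29.3% higher, 28.0% lower). In ACAT1 KO cells 20 passed, with 13 higher and 7 lower, beside 60.7% of all genes (29.5% higher, 31.2% lower). With the line as a block 26 and 25 of the 40 passed, beside 62.0% and 64.8% of all genes. Unstimulated and LPS libraries did not overlap in 20 of the 40 genes in each genotype. The share of all genes without such overlap is not given here, so its mention below does not set a gene apart. Of the increases, 11 were called in both genotypes (11 of 12 in WT, 11 of 13 in ACAT1 KO), and of the decreases 5 (5 of 6, 5 of 7). The median log2 fold change of the list was 0.0931 in WT and 0.0609 in ACAT1 KO cells, against -0.0177 and -0.0263 over all genes. Directions of small changes depend on the scaling: upper-quartile normalization placed the median of all genes at -0.226 in WT and -0.175 in ACAT1 KO cells, and then called 7 genes of the list higher and 18 lower in WT (21.9% and 40.4% of all genes), and 10 and 15 in ACAT1 KO cells (23.7% and 39.7%). The increases of Lamp1, Ctsb, Grn, Gla and Atp6v0d1 in WT and of Lamp1, Ctsb and Scarb2 in ACAT1 KO cells missed the threshold on that scale. Decreases gained on that scale in WT were those of Tfe3, Lamp2, Ctsd, Ctsl, Ctss, Tpp1, Glb1, Gusb, Hexa, Naglu, Psap and Ppt1. In ACAT1 KO cells the decreases gained were those of Lamp2, Ctsl, Ctss, Gusb, Hexa, Naglu, Psap and Ppt1. In bulk libraries, fewer cells of a kind and less RNA per cell cannot be told apart.

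Tfeb (chr17:47737030-47792419, plus strand) encodes the factor best known as the master regulator of lysosome genes. Its transcript was at 17.7, 16.8 and 17.7 CPM in the 3 unstimulated WT lines and at 17.4, 17.4 and 15.5 CPM in the 3 ACAT1 KO lines. After LPS it was at 6.003, 4.74 and 4.05 CPM in WT and at 2.69, 2.23 and 2.58 CPM in ACAT1 KO lines. All 6 LPS libraries lay below all 6 unstimulated ones, and the 3 ACAT1 KO libraries lay below the 3 WT libraries only after LPS. Tfeb fell by 1.82 on the log2 scale in WT (SE 0.132, 3.54-fold, edgeR adjusted p = 2.55e-07) and fell by 2.745 in ACAT1 KO cells (SE 0.138, 6.71-fold, adjusted p = 1.08e-08). The fall was seen in every line, from -1.55 to -2.10 in WT and from -2.54 to -2.91 in ACAT1 KO lines.

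Mitf (chr6:97807052-98021349, plus strand), the family member known from melanocytes, osteoclasts and mast cells, went the other way. It was at 27.1, 23.0 and 23.7 CPM in unstimulated WT and at 19.4, 19.7 and 21.4 CPM in unstimulated ACAT1 KO lines. With LPS it reached 88.3, 85.9 and 77.3 CPM in WT and 96.8, 103.6 and 109.9 CPM in ACAT1 KO lines. The unstimulated and LPS libraries did not overlap in either genotype. The rise was 1.77 on the log2 scale in WT (SE 0.0818, 3.41-fold, adjusted p = 7.49e-09) and 2.36 in ACAT1 KO cells (SE 0.0832, 5.13-fold, adjusted p = 7.55e-10). The order within the family thus changed: unstimulated WT cells had 5.95 CPM per kb of Tfe3, 3.97 of Mitf and 3.07 of Tfeb, and WT cells with LPS had 13.5 of Mitf, 5.74 of Tfe3 and 0.870 of Tfeb.

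Tfe3 (chrX:7762560-7775202, plus strand), which shares many targets with Tfeb, varied less. It was at 53.0, 55.4 and 57.0 CPM in unstimulated WT lines and at 63.7, 57.1 and 61.2 CPM in ACAT1 KO lines. With LPS it was at 58.6, 49.8 and 50.9 CPM in WT and at 50.9, 46.2 and 49.0 CPM in ACAT1 KO lines. The change in WT was -0.05 on the log2 scale (SE 0.0720, adjusted p = 0.555), and the ACAT1 KO libraries with LPS all lay below the unstimulated ones, with a change of -0.32 (SE 0.0720, 1.25-fold, adjusted p = 0.00227). With upper-quartile normalization Tfe3 passed in both genotypes, at -0.263 in WT (adjusted p = 0.00625) and -0.467 in ACAT1 KO cells (adjusted p = 1.035e-04). Tfec, the remaining member of the family and one largely restricted to macrophages, was not in the list of 41 and is given because it completes the family. It stood at 0.168 to 0.178 CPM in unstimulated WT and 0.174 to 0.319 CPM in unstimulated ACAT1 KO lines, and rose to 1.70 to 2.07 CPM and 3.27 to 5.53 CPM with LPS, a log2 fold change of 3.40 in WT (SE 0.266, adjusted p = 4.74e-07) and 4.22 in ACAT1 KO cells (SE 0.262, adjusted p = 6.16e-08).

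**Figure D2:**
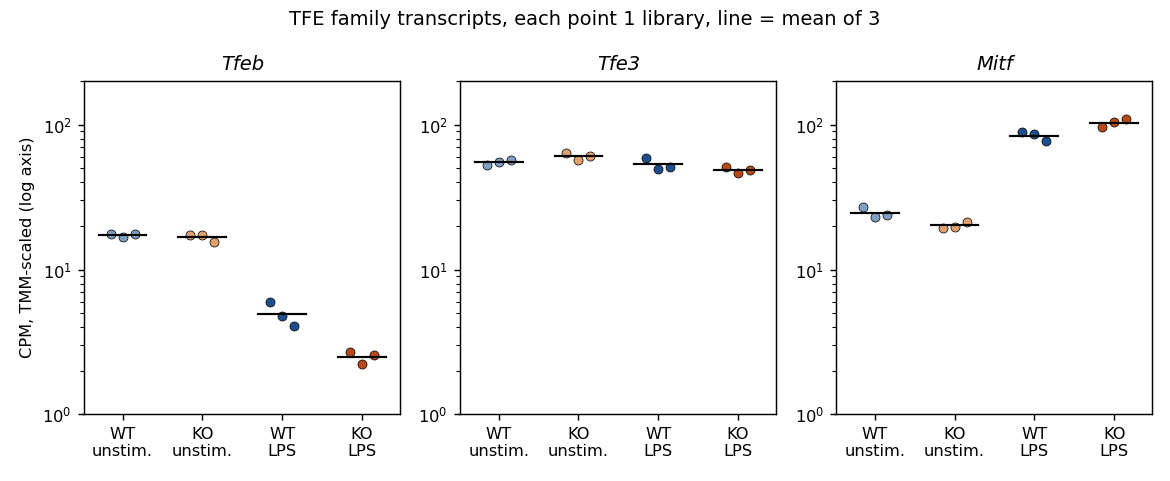
CPM of Tfeb, Tfe3 and Mitf (log axis) in each of the 12 libraries, by group; the line is the mean of 3. Tfeb falls with LPS to 4.05 to 6.003 CPM in WT and 2.23 to 2.69 CPM in ACAT1 KO lines, Mitf rises to 77.3 to 110 CPM, and Tfe3 stays between 46.2 and 63.7 CPM.

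Of the 7 V-ATPase subunits, 5 rose in WT cells and 1 fell, and 4 rose in ACAT1 KO cells. Their median log2 fold change was 0.60 in WT and 0.65 in ACAT1 KO cells. The pump has a cytosolic V1 part that splits ATP and a membrane V0 part that carries protons. Atp6v1b2, a subunit of the catalytic ring of V1, was at 187, 200 and 216 CPM in unstimulated WT and 397, 359 and 365 CPM in WT LPS lines, and at 222, 191 and 213 CPM against 386, 376 and 409 CPM in ACAT1 KO lines. It rose by 0.90 on the log2 scale in WT (SE 0.0763, 1.86-fold, adjusted p = 9.77e-07) and by 0.90 in ACAT1 KO cells (SE 0.0763, 1.87-fold, adjusted p = 7.80e-07), with no overlap of libraries.

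Atp6v1h, another V1 subunit, rose in the same manner. It went from 105, 106 and 110 CPM to 193, 167 and 166 CPM in WT lines and from 107, 93.0 and 112 CPM to 179, 155 and 189 CPM in ACAT1 KO lines, by 0.71 (SE 0.0920, adjusted p = 3.42e-05) and 0.74 (SE 0.0920, adjusted p = 2.13e-05) on the log2 scale. Atp6v1a, the subunit that binds and splits ATP, rose by 0.60 (SE 0.0900, adjusted p = 1.17e-04) in WT and 0.64 (SE 0.0901, adjusted p = 5.91e-05) in ACAT1 KO cells. Atp6v0a1, the large V0 subunit that forms the proton path, went from 57.9, 50.2 and 49.8 CPM to 89.8, 78.3 and 88.6 CPM in WT lines and from 57.5, 49.9 and 49.2 CPM to 107, 92.0 and 90.7 CPM in ACAT1 KO lines. Its log2 fold change was 0.70 in WT (SE 0.0928, adjusted p = 4.13e-05) and 0.88 in ACAT1 KO cells (SE 0.0929, adjusted p = 5.26e-06). These 4 subunits remained higher past the threshold under upper-quartile normalization in both genotypes.

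Atp6v0d1, the common V0 subunit at the foot of the rotor, rose by 0.27 in WT (SE 0.0709, adjusted p = 0.00642), and its value of 0.16 in ACAT1 KO cells missed the threshold (adjusted p = 0.0667, 0.0381 with the line as a block and 0.0684 with the block and the term for the 3 libraries that stood apart). Atp6ap1, an accessory protein of the pump, had 0.15 in WT (adjusted p = 0.0634, 0.0316 with the line as a block and 0.243 with the block and that term) and 0.07 in ACAT1 KO cells (adjusted p = 0.357). Atp6v0d2 fell by 1.25 on the log2 scale in WT (adjusted p = 0.0187), but from 0.0990, 0.244 and 0.121 CPM to 0.0821, 0.0406 and 0.0661 CPM, and its level in ACAT1 KO lines was 0.0724, 0.0761 and 0.0909 CPM before and 0.0466, 0.0447 and 0.0762 CPM after LPS. That call was lost with DESeq2 (adjusted p = 0.0793), with the block and that term (-0.926, adjusted p = 0.205), without WT unstimulated replicate 2 (-0.823, adjusted p = 0.0895) and without WT LPS replicate 2 (-1.04, adjusted p = 0.0663).

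**Figure D3:**
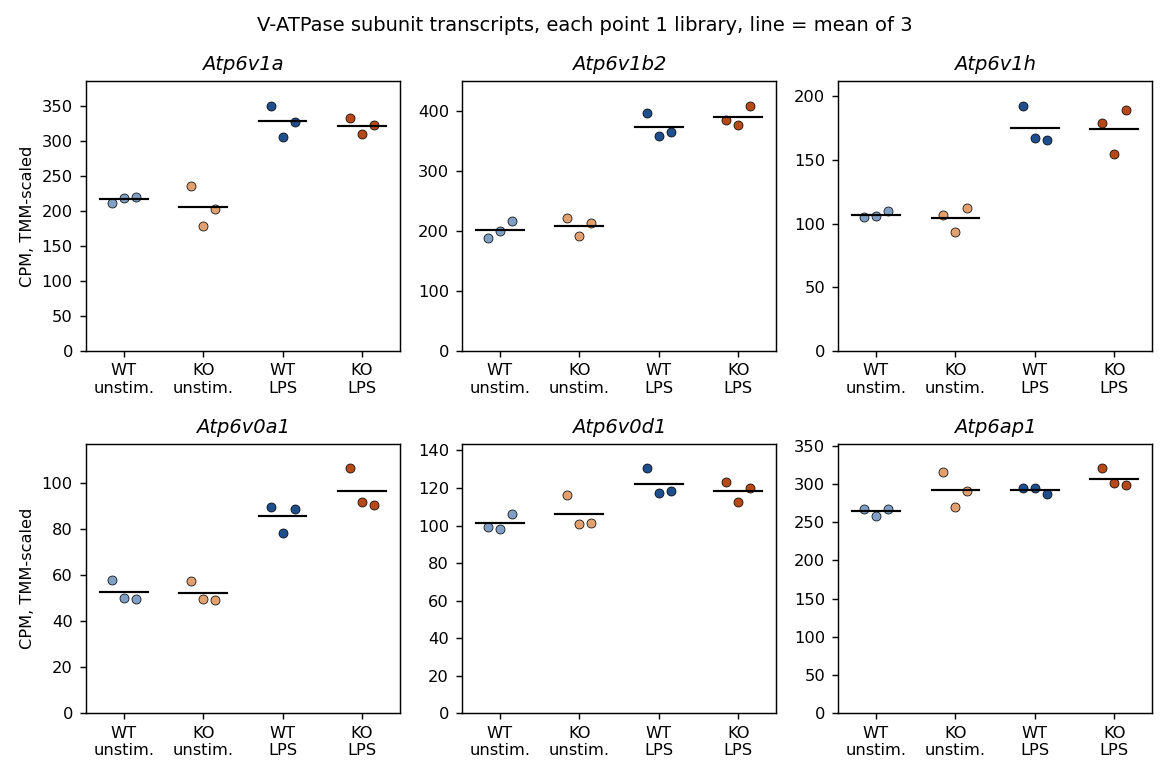
CPM of 6 V-ATPase subunits in each of the 12 libraries, by group, with axes from 0; the line is the mean of 3. In Atp6v1a, Atp6v1b2, Atp6v1h and Atp6v0a1 every LPS library lies above every unstimulated one.

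Of the 10 proteases, 3 rose in WT cells and 4 rose and 1 fell in ACAT1 KO cells, and the median log2 fold change was 0.155 and 0.0157. Ctsh, an aminopeptidase, rose most: from 17.8, 8.52 and 16.2 CPM to 31.0, 20.0 and 30.7 CPM in WT lines and from 11.4, 10.3 and 12.7 CPM to 19.7, 21.1 and 23.3 CPM in ACAT1 KO lines. WT replicate 2 was the lowest of its group in both states. The log2 fold change was 0.94 in WT (SE 0.236, 1.92-fold, adjusted p = 0.00477) and 0.89 in ACAT1 KO cells (SE 0.236, 1.86-fold, adjusted p = 0.00607). Ctsz rose by 0.62 (adjusted p = 1.81e-04) and 0.61 (adjusted p = 1.86e-04), and Ctsb, a broad endopeptidase, by 0.27 (adjusted p = 0.00961, and 0.0595 without WT unstimulated replicate 1) and 0.26 (adjusted p = 0.0103). Ctsc, which trims and activates serine proteases, rose by 0.67 in ACAT1 KO cells (SE 0.151, adjusted p = 0.00235), and its 0.33 in WT had an adjusted p of 0.0843, or 0.00247 with the line as a block. Ctsd fell by 0.23 in ACAT1 KO cells (adjusted p = 0.0154) and stood at -0.13 in WT (adjusted p = 0.134, and 0.0228 with the line as a block). The ACAT1 KO call of Ctsd was lost without ACAT1 KO unstimulated replicate 1 (adjusted p = 0.0663), without unstimulated replicate 3 (0.0501) and without LPS replicate 2 (0.0748). Ctsa, Ctsl, Ctss, Tpp1 and Ctsk passed in neither genotype, with log2 fold changes between -0.101 and 0.0415 for all but Ctsk, which was at 0.0381 to 0.270 CPM. With the block and the term for the 3 libraries Ctss passed in ACAT1 KO cells (-0.134, adjusted p = 0.0397). With upper-quartile normalization Ctss (-0.208, adjusted p = 0.00998) and Ctsl (-0.274, adjusted p = 0.00262) passed in WT. Both passed in ACAT1 KO cells as well, Ctss at -0.249 (adjusted p = 0.00325) and Ctsl at -0.157 (adjusted p = 0.0474).

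Glycosidases take sugars off glycoproteins and glycolipids, and 1 of the 7 rose and 1 fell in each genotype. Gla, which removes terminal galactose, went from 91.1, 93.3 and 87.4 CPM to 161, 118 and 113 CPM in WT and from 100.3, 76.8 and 88.9 CPM to 134, 114 and 131 CPM in ACAT1 KO lines, by 0.53 (SE 0.131, adjusted p = 0.00454) and 0.51 (SE 0.131, adjusted p = 0.00505) on the log2 scale. Neu1, the sialidase, went from 148, 132 and 146 CPM to 95.0, 88.7 and 102 CPM in WT and from 176, 164 and 186 CPM to 117, 110 and 123 CPM in ACAT1 KO lines. It fell by 0.58 (SE 0.0736, 1.497-fold, adjusted p = 2.81e-05) and 0.59 (SE 0.0735, 1.504-fold, adjusted p = 2.31e-05), in all 6 lines. Glb1, Gaa, Gusb, Hexa and Naglu lay between -0.16 and 0.13 and did not pass. With the line as a block Naglu passed in both genotypes (-0.161, adjusted p = 0.0300, and -0.159, adjusted p = 0.0297) and Hexa in ACAT1 KO cells (-0.132, adjusted p = 0.0367). With the term for the 3 libraries added, the adjusted p of Naglu was 0.0521 in WT and 0.0253 in ACAT1 KO cells, Hexa passed in both (0.0356 and 0.0108), and Gaa passed in ACAT1 KO cells (0.153, adjusted p = 0.0312).

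Among the 5 proteins that handle lipid, 2 fell in each genotype and none rose past the threshold. Asah1, the acid ceramidase, fell by 0.21 in WT (adjusted p = 0.00906) and 0.22 in ACAT1 KO cells (adjusted p = 0.00805). Smpd1, the acid sphingomyelinase that makes ceramide, fell by 0.22 (adjusted p = 0.00908) and 0.24 (adjusted p = 0.00442). Psap, Lipa and Ppt1, which encode the saposin precursor, the acid lipase and a thioesterase that removes palmitate, had log2 fold changes from -0.161 to 0.112, of which those of Ppt1 passed with the line as a block (-0.160, adjusted p = 0.0181 in WT and -0.142, adjusted p = 0.0281 in ACAT1 KO cells). Grn, a secreted and lysosomal glycoprotein, rose by 0.29 in WT (SE 0.0858, adjusted p = 0.0118, and 0.0628 without WT unstimulated replicate 1) and 0.37 in ACAT1 KO cells (SE 0.0858, adjusted p = 0.00250).

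Of the 7 membrane proteins, Mcoln1 fell and Lamp1 rose in both genotypes. Mcoln1, the calcium channel TRPML1 whose calcium feeds the calcineurin that dephosphorylates TFEB, fell by 0.35 in WT (SE 0.0752, adjusted p = 0.00156) and 0.31 in ACAT1 KO cells (SE 0.0750, adjusted p = 0.00369). Lamp1 rose by 0.19 (adjusted p = 0.0136) and 0.17 (adjusted p = 0.0223), values that became -0.0153 and 0.0254 with upper-quartile normalization. Its calls were lost without WT LPS replicate 1 in WT (adjusted p = 0.0616) and without ACAT1 KO unstimulated replicate 2, LPS replicate 1 or LPS replicate 3 in ACAT1 KO cells (0.0772, 0.0669 and 0.0667). Scarb2, the receptor that carries glucocerebrosidase to lysosomes, rose by 0.20 in ACAT1 KO cells (adjusted p = 0.0335), a call lost without unstimulated replicate 3 (0.136), LPS replicate 1 (0.106) or LPS replicate 2 (0.117). Lamp2, Laptm5, Cd68 and Gpnmb passed in neither genotype. Gpnmb, a glycoprotein of phagocytes, varied between lines, from 317 to 507 CPM in unstimulated ACAT1 KO cells, but changed by 0.171 to 0.311 within each of the 6 lines, and passed in both genotypes with the line as a block (0.241, adjusted p = 0.00252, and 0.249, adjusted p = 0.00199). With the block Cd68 (0.196, adjusted p = 0.0114) and Laptm5 (0.134, adjusted p = 0.0495) passed in WT cells as well, but with the term for the 3 libraries added Cd68 did not (0.141, adjusted p = 0.0900).

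**Figure D4:**
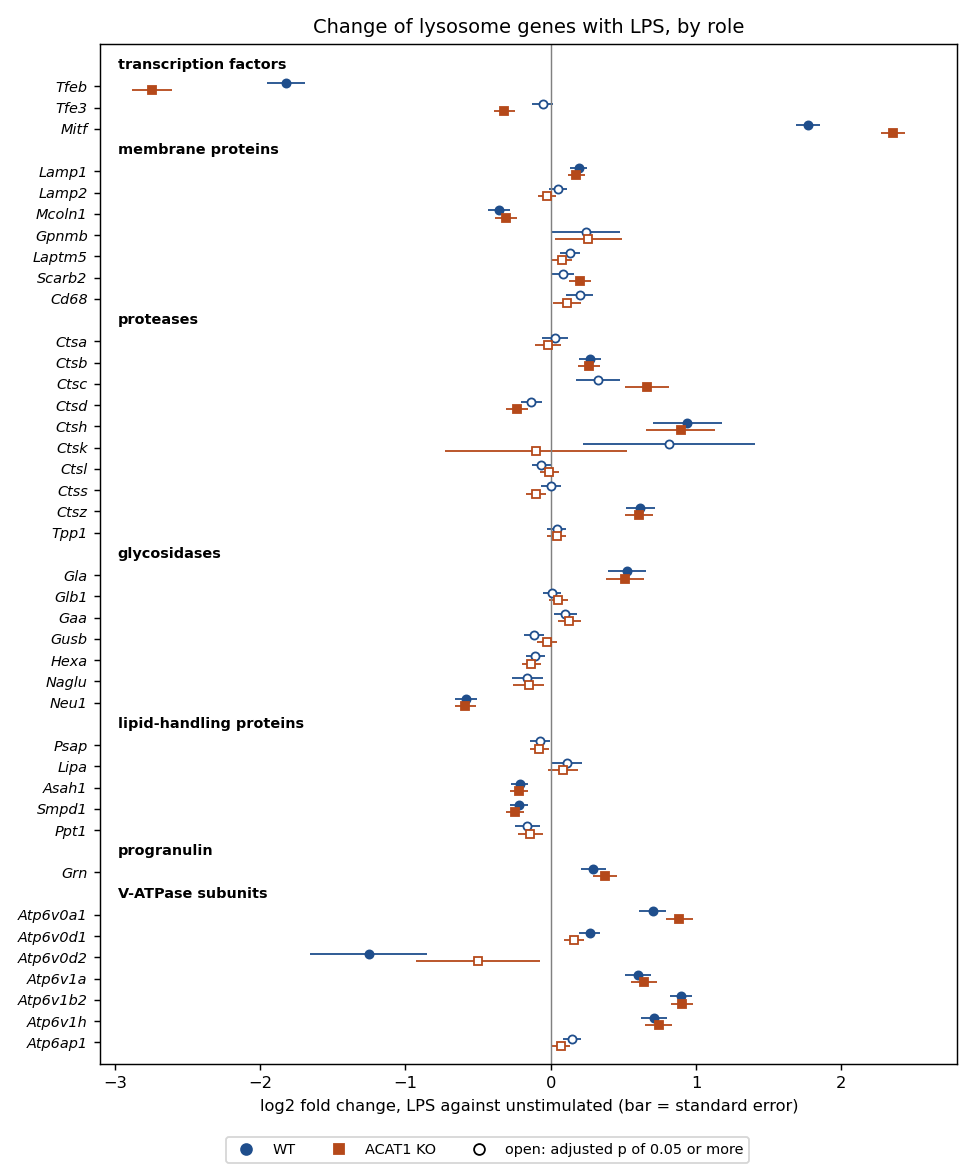
Log2 fold change with LPS of the 40 transcripts, by role, in WT (circles) and ACAT1 KO cells (squares); bars are standard errors of the fit over 12 libraries and filled symbols have an adjusted p under 0.05. Tfeb at -1.82 and -2.75 and Mitf at 1.77 and 2.36 lie beyond all other genes, of which Atp6v0d2 comes nearest at -1.25 in WT.

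The second comparison asked how ACAT1 KO cells differed from WT cells in each state. After LPS, 12 of 39 genes passed an adjusted p of 0.05, with 10 higher and 2 lower, beside 15.1% of all 16483 genes tested (5.93% higher, 9.12% lower). The genes higher in ACAT1 KO cells were Mitf, Lamp2, the proteases Ctsa, Ctsc and Ctsz, the glycosidases Gaa, Gusb and Neu1, and the lipid enzymes Lipa and Asah1, and the lower ones were Tfeb and Ctsl. Atp6v0d2 had too few counts to enter this fit. The groups did not overlap in 17 of the 39, with 14 higher and 3 lower, where 37.8% of all genes had no overlap (15.6% higher, 22.2% lower). The median log2 fold change was 0.0435, against -0.00409 over all genes. The count of 12 fell to 7 without WT LPS replicate 2, to 7 without ACAT1 KO LPS replicate 1, to 6 without ACAT1 KO LPS replicate 2 and to 7 without ACAT1 KO LPS replicate 3.

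Tfeb was 1.94-fold lower in ACAT1 KO cells after LPS (log2 fold change -0.96, SE 0.161, adjusted p = 0.00958). Ctsc was at 438, 587 and 652 CPM in WT LPS lines and at 1127, 1036 and 883 CPM in ACAT1 KO LPS lines, which was 1.84-fold higher (0.88, SE 0.148, adjusted p = 0.00954). Gusb, which removes glucuronic acid, was at 560, 507 and 588 CPM against 705, 709 and 709 CPM, higher by 0.38 (SE 0.0680, adjusted p = 0.0119). Asah1 was higher by 0.30 (SE 0.0519, adjusted p = 0.01085). In none of these genes did the WT and ACAT1 KO libraries overlap. The calls of Tfeb, Ctsa, Ctsc, Ctsz, Gusb and Asah1 stood with each of the 6 libraries left out in turn.

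Ctsa, a serine carboxypeptidase that also protects NEU1 and the beta-galactosidase in a complex, was at 934, 887 and 971 CPM in WT and at 1337, 1196 and 1221 CPM in ACAT1 KO LPS lines, higher by 0.45 (SE 0.0689, adjusted p = 0.00730). Ctsz was at 1594, 1512 and 1654 CPM against 2142, 1974 and 2088 CPM, higher by 0.40 (SE 0.0679, adjusted p = 0.00958). Both genes lie on the distal part of chromosome 2 (Ctsa at chr2:164832873-164841032, Ctsz at chr2:174427493-174439039), where genes in general were higher in ACAT1 KO lines. From 90 Mb to the end of that chromosome the median log2 fold change was 0.279 over 712 genes after LPS and 0.293 over 709 genes unstimulated. Within 5 Mb of Ctsa and of Ctsz the medians after LPS were 0.267 and 0.256. The part of this regional difference in the values of Ctsa and Ctsz was not tested. The exons of Ctsa also share 17.4% of their length with genes of the other strand, and those of Ctsl 26.8%, and whether reads were counted by strand is not given in the sources used here.

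Lipa, the acid lipase that frees cholesterol and fatty acids from esters, was at 424, 426 and 541 CPM in WT and at 653, 593 and 563 CPM in ACAT1 KO LPS lines, higher by 0.40 (SE 0.106, adjusted p = 0.0405). Gaa, which breaks down glycogen, was higher by 0.35 (adjusted p = 0.0240), Mitf by 0.32 (adjusted p = 0.0244), Neu1 by 0.315 (adjusted p = 0.0245) and Lamp2 by 0.20 (adjusted p = 0.0466), and Ctsl, an endopeptidase, was lower, at -0.28 (adjusted p = 0.0310). These 6 calls were close to the threshold. The call of Lamp2 was lost with any 1 library left out (adjusted p from 0.0615 to 0.158), and that of Lipa with any but WT LPS replicate 3 left out (0.0728 to 0.125). The others were lost without WT LPS replicate 2 (Mitf 0.0596, Ctsl 0.0971, Gaa 0.0685, Neu1 0.0709) and without ACAT1 KO LPS replicate 2 (Mitf 0.0797, Ctsl 0.118, Gaa 0.0505, Neu1 0.0501). Gaa and Neu1 were lost as well without ACAT1 KO LPS replicate 1 (0.0818 and 0.0750) or 3 (0.0778 and 0.0829), Mitf without WT LPS replicate 3 (0.0535) or ACAT1 KO LPS replicate 3 (0.0794), and Ctsl without WT LPS replicate 3 (0.0515) or ACAT1 KO LPS replicate 1 (0.0988).

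No V-ATPase subunit of the list passed between genotypes after LPS, at log2 fold changes from -0.02 to 0.19, of which 1 had an unadjusted p under 0.05 (Atp6v0a1, 0.0469) and none passed with DESeq2. Grn was at 0.0421 (SE 0.0676), Lamp1 at 0.0204 (SE 0.0632) and Psap at -0.0833 (SE 0.0644).

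In unstimulated cells, edgeR called 0 of 39 genes between genotypes at an adjusted p of 0.05, beside 1.91% of all 16440 genes tested, while DESeq2 called 11 (12.4% of the 13854 genes it tested). At an unadjusted p of 0.05, the threshold of the study, 14 of the 39 passed, with 12 higher and 2 lower, beside 19.7% of all genes (9.73% higher, 9.93% lower). The 3 genes with the smallest p were Lipa, Ctsa and Ctsl. Lipa was at 421, 400 and 466 CPM in WT and at 620, 548 and 537 CPM in ACAT1 KO lines (log2 fold change 0.41, SE 0.0887, adjusted p = 0.0721). Ctsa was at 881, 859 and 992 CPM against 1428, 1136 and 1243 CPM (0.49, SE 0.105, adjusted p = 0.0733). Ctsl was at 1154, 1152 and 1209 CPM against 935, 846 and 971 CPM (-0.34, SE 0.0746, adjusted p = 0.0741). These 3 genes were picked by p in the same data. All 3 passed when a term for the 3 libraries that stood apart was in the fit, with adjusted p of 0.0463, 0.0373 and 0.0330. The share of all genes that this fit called is not given here. The spread between libraries was wider in this state, at a biological coefficient of variation of 0.285 against 0.108 with LPS. The 3 libraries that stood apart are all from it, and the deviations of ACAT1 KO replicate 2 from its group mean correlated with those of WT replicates 1 and 2 at r of 0.583 and 0.745 across 11961 genes of at least 1 CPM. Their part in the spread was not tested. Tfeb differed by -0.05 (SE 0.0774, adjusted p = 0.803) before LPS, and Mitf by -0.28 (SE 0.0856, adjusted p = 0.147), in the direction opposite to that after LPS. The remaining genes called after LPS already lay higher before it, though none passed here. Their unstimulated log2 fold changes were 0.53 for Ctsc, 0.40 for Ctsz, 0.31 for Gaa, 0.28 for Gusb, 0.31 for Neu1, 0.29 for Asah1 and 0.26 for Lamp2.

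**Figure D5:**
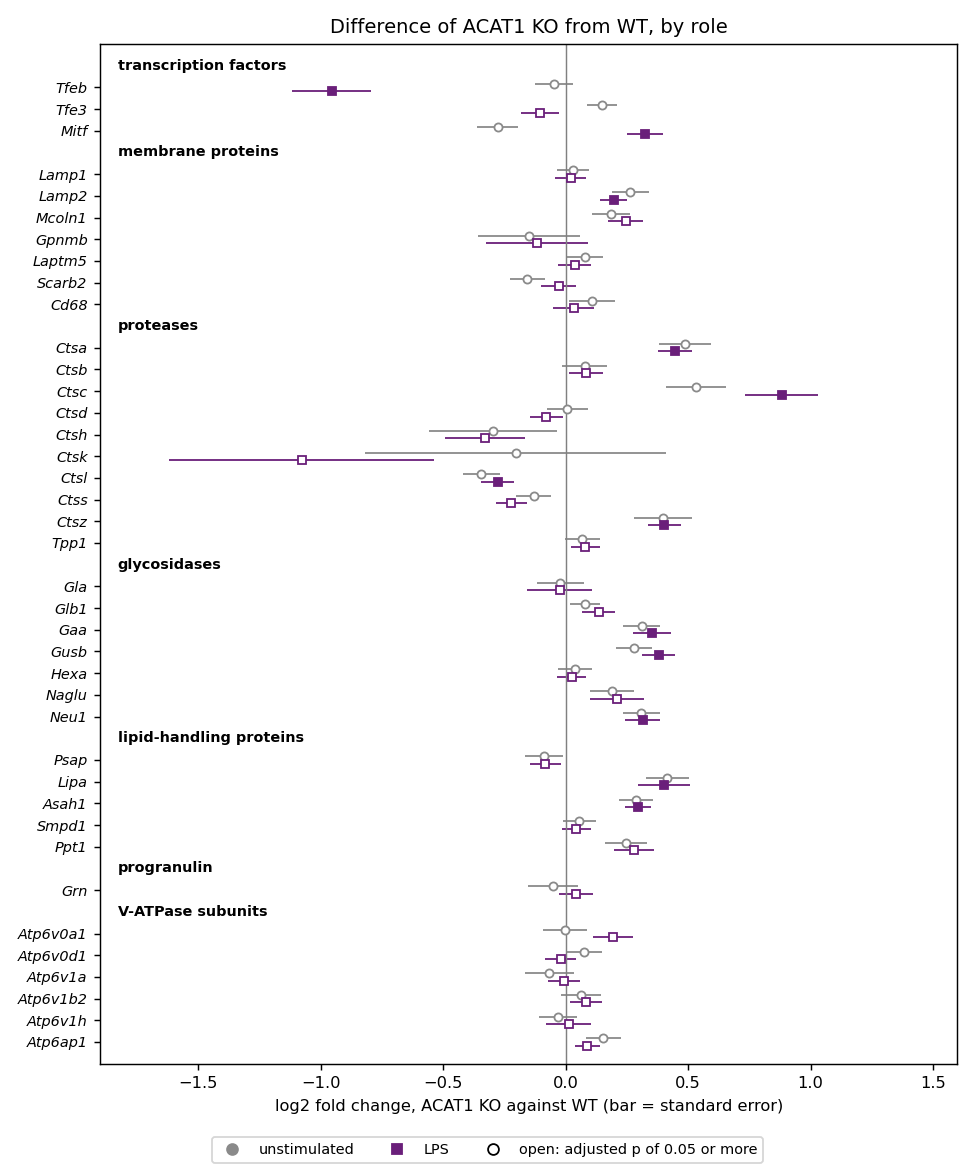
Log2 fold change of ACAT1 KO against WT for 39 transcripts, by role, unstimulated (grey circles) and with LPS (purple squares); bars are standard errors and filled symbols have an adjusted p under 0.05. Filled symbols appear only with LPS: Tfeb and Ctsl lie to the left and 10 genes to the right, Ctsc furthest at 0.88. All of these genes but Mitf had an unstimulated value in the same direction, that of Tfeb near 0.

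The third comparison asked whether the change with LPS differed between genotypes, as an interaction over the 12 libraries. No gene of the 40 passed an adjusted p of 0.05 with edgeR, beside 0.187% of all 16535 genes, and 3 had an unadjusted p under 0.05, all of them TFE factors, beside 8.92% of all genes, while DESeq2 called 2 (2.63% of all genes). Tfeb fell further with LPS in ACAT1 KO than in WT cells, with an interaction of -0.92 on the log2 scale (SE 0.183, adjusted p = 0.0817). With the line as a block, which takes each line's LPS library against its own unstimulated one, the difference was -0.905 with an adjusted p of 0.0376, in a fit that called 1.74% of all genes. Mitf rose further in ACAT1 KO cells, by 0.59 (SE 0.113, adjusted p = 0.0735), or 0.589 with the block (adjusted p = 0.0118). Both passed as well with the block and the term for the libraries that stood apart (adjusted p = 0.0342 and 0.00520). Neither passed with upper-quartile normalization and no block (edgeR adjusted p = 0.112 for Tfeb and 0.0570 for Mitf). Tfe3 was at -0.26 (SE 0.102, adjusted p = 0.431, and 0.238 with the block). By line, Tfe3 changed by -0.305 to -0.325 in ACAT1 KO and by -0.162 to 0.144 in WT lines, and Mitf by 2.31 to 2.39 and by 1.70 to 1.90. How many of all genes had lines separated in this way was not counted. The other 37 genes had interaction values with adjusted p of 0.739 or more, with a median over the 40 of -0.00593 against -0.0382 over all genes.

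Other genes of the same machinery were taken from 7 lists of 139 genes, of which 135 were tested over the 12 libraries. With LPS, 85 of the 135 passed in each genotype, 54 higher and 31 lower in WT and 47 higher and 38 lower in ACAT1 KO cells, beside the 57.4% and 60.7% of all genes given above. By list, 7 of 13 further V-ATPase subunits rose and 1 fell in WT cells and 5 rose and 2 fell in ACAT1 KO cells. Tcirg1, the a3 subunit of V0, rose by 1.37 in WT (SE 0.0829, 2.58-fold, adjusted p = 6.09e-08) and 1.62 in ACAT1 KO cells (SE 0.0835, 3.08-fold, adjusted p = 1.36e-08), and Atp6v1e1 by 0.61 and 0.63. Of 28 further hydrolases, 5 rose and 8 fell in WT and 6 rose and 10 fell in ACAT1 KO cells. These counts depend on the scaling. With upper-quartile normalization 23 of the 28 passed in WT and 20 in ACAT1 KO cells, and 92 of the 135 in each genotype. Over all 16535 genes that scaling called 10309 and 10481. The directions of the calls of these lists on that scale are not given here. Acp2, an acid phosphatase, rose by 0.76 and 0.61, and Pla2g15, a phospholipase, fell by 1.13 and 1.33. Of 24 further membrane and transport proteins, 7 rose and 8 fell in WT and 6 and 9 in ACAT1 KO cells, with the chloride exchanger Clcn7 up by 0.80 and 0.86.

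The genes that govern TFE factors from outside the family changed in both directions. Of 24 genes of mTORC1, the Rag GTPases and calcineurin, 10 rose and 5 fell in WT and 7 and 7 in ACAT1 KO cells. These 15 and 14 calls were near the shares of all genes, 57.4% and 60.7%. Beside each list of this paragraph stand 29.3% of all genes higher and 28.0% lower in WT. The same shares were 29.5% and 31.2% in ACAT1 KO cells. Rraga, a Rag GTPase, rose by 1.00 and 1.21, Rptor, the mTORC1 scaffold, by 0.74 and 0.82, and Tsc1, an mTORC1 inhibitor, by 1.12 and 1.02. Of 5 further transcriptional regulators, 2 rose and 2 fell in each genotype. Tfec was among the former, and Foxo1 and Foxo3 fell, Foxo3 by 0.88 in WT and 1.31 in ACAT1 KO cells. Of 29 autophagy genes, 17 rose and 5 fell in WT and 14 and 6 in ACAT1 KO cells, with Sqstm1, the cargo receptor p62, up by 2.31 in WT and 2.66 in ACAT1 KO cells, and Optn, another cargo receptor, up by 1.74 and 1.70. Of 12 genes that sort enzymes to lysosomes, 6 rose and 2 fell in WT and 7 and 2 in ACAT1 KO cells, and both receptors for mannose 6-phosphate rose: M6pr by 1.03 in each genotype and Igf2r by 3.57 and 2.60, from 0.382 to 0.983 CPM to 4.30 to 6.57 CPM. Most median changes of these lists were small: they ran from -0.129 for the hydrolases to 0.320 for the V-ATPase in WT cells, against -0.0177 over all genes.

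Between genotypes, 29 of the 136 genes tested after LPS passed, 16 higher and 13 lower in ACAT1 KO cells, beside 15.1% of all genes (5.93% higher, 9.12% lower). Arsb, which removes sulfate, was higher by 0.72 (SE 0.0857, adjusted p = 0.00337) and Acp2 by 0.44 (adjusted p = 0.003245), while Lgmn, an asparaginyl endopeptidase that matures cathepsins, was lower, at -0.41 (adjusted p = 0.00447). Of 24 membrane and transport proteins none was higher and 4 were lower, among them Npc2, a cholesterol carrier, at -0.39 (adjusted p = 0.00737) and Tpcn1, a cation channel, at -0.68 (adjusted p = 0.00753). Acp2 lies on chromosome 2 beyond 90 Mb, in the region described for Ctsa and Ctsz. Lgmn and Npc2 lie on chromosome 12, where the median log2 fold change was -0.282 over 584 genes after LPS (12 higher, 240 lower) and -0.26 over 585 genes unstimulated (0 higher, 39 lower). The part of these regional differences in the values of Acp2, Lgmn and Npc2 was not tested. Tfec was 2.57-fold higher in ACAT1 KO cells after LPS (log2 fold change 1.36, SE 0.208, adjusted p = 0.00711), so that it lay with Mitf above WT while Tfeb lay below. In unstimulated cells 5 of 135 passed, beside 1.91% of all genes. Acp2 at 0.58 (adjusted p = 0.0185), Arsb at 0.63 (0.0456) and Naaa, an acid amidase named after its value was seen, at 0.56 (0.0464) were higher, and Lgmn at -0.44 (0.0403) and Fnip2, a partner of folliculin, at -0.57 (0.0387) were lower. DESeq2 called 23 of the 135, beside 12.4% of the genes it tested. The interaction called none of the 135 with edgeR, and 8 had an unadjusted p under 0.05, beside 8.92% of all genes. Both DESeq2 and the line block called 2 (2.63% and 1.74% of all genes), Uvrag among them, at -0.516 with the block (adjusted p = 0.0218).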

How the data were processed

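RNA of 12 J774A.1 cultures was sequenced as stranded paired reads, and per the labels and the methods of the study the authors trimmed reads with Trimmomatic 0.33, aligned with HISAT2 and assembled with StringTie. The 2 deposited tables, one per state, hold whole-number counts per gene, made by the authors in a step that, like the use of strand, is not given in the sources used here. The authors also deposited 12 columns of log2 expression per library, and their comparison as a log2 fold change, a mean log2 level, a t and B score, p-values and adjusted p-values. Those columns were not used. Rows that repeated a gene identifier (59 and 57) were removed after the first, and 17521 and 17849 genes matched GENCODE vM21 (GRCm38).

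Counts were tested in R 4.3.3 with the quasi-likelihood test of edgeR 4.0.16 after TMM normalization and filterByExpr, with Benjamini-Hochberg adjustment over all genes of the fit and a threshold of 0.05. Genotypes were compared within each state over 6 libraries (16440 and 16483 genes), and LPS within each genotype and the interaction in 1 fit of the 4 groups (16535 genes). Every adjusted p given is from edgeR unless DESeq2 1.42.0 is named. The scripts were tested on simulated data. Groups have 3 libraries, so an exact permutation test of a single gene could not go below 0.1. The p-values set a difference against the spread between libraries within groups, each from a different clonal line. In unstimulated groups that spread includes the 3 libraries that stood apart. The 1 fit of the 4 groups did not use the pairing of lines. With the line as a block, the spread is that of the change with LPS between lines. No library repeated another: chi-square per degree of freedom was 31.7 to 269 over 12 pairs within groups.

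Labels number the lines 1 to 3 in each group. Unstimulated and LPS libraries of the same number in a genotype were taken as 1 line, since their deviations from the group means correlated (r from 0.139 to 0.454 over 11961 genes of at least 1 CPM in all 6 pairs, and from 0.0913 to 0.307 over all genes), against -0.344 to 0.0976 for different numbers. The labels do not say so. The line as a block is therefore given beside results it changes.

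The genes of the list and the further lists were chosen with earlier results of these data known. Library values are given for the TFE factors and, per comparison, for up to 6 genes of the list past the threshold with the largest change (the 3 with the smallest p where fewer than 3 passed), and of each further list at most 3 genes by p. Gla, Neu1, Gpnmb and Foxo1 were singled out after their values were seen. CPM per kb divides by the union of exons. Depth was 56948593 to 167280149 counts per library. Alternatives were DESeq2, other scalings, no filter, a block, a term for the 3 libraries that stood apart, 1 fit of all libraries, and leaving out each library. Some genes of the further lists are not reported here.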

Additional observations from a re-analysis of the deposited data

Results flagged for a closer look

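The difference between genotypes in the change with LPS passed for 2 genes of the list once each line was compared with itself. For Tfeb, which encodes the factor best known for driving lysosome genes, the interaction with the line as a block was -0.905 on the log2 scale (edgeR adjusted p = 0.0376), a larger fall in each of the 3 ACAT1 KO lines than in any WT line. For Mitf, its relative, it was 0.589 (adjusted p = 0.0118), a larger rise in each ACAT1 KO line than in any WT line. Without the block the adjusted p were 0.0817 and 0.0735, and with upper-quartile normalization in its place 0.112 and 0.0570. The fit with the block called 1.74% of all genes, and how many had lines so separated was not counted.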

How the results depend on the processing

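Between genotypes in unstimulated cells, edgeR called 0 genes of the list, DESeq2 11, upper-quartile normalization 1, the term for the 3 libraries that stood apart 3 and 1 fit of all 12 libraries 10, and leaving out 1 library gave 0 to 1. Of all genes, edgeR called 314, DESeq2 1721 and upper-quartile normalization 306. Calls over all genes are not given here for the term, the 1 fit or the fits that left out a library. After LPS the 12 calls became 6 to 12 with 1 library left out, while other settings gave 8 (replicate block) to 15 (DESeq2). Over all genes the 2481 calls became 2230 with the replicate block and 3098 with DESeq2. For the interaction the 0 calls became 2 with DESeq2, 2 with the replicate block and 2 with the block and the term for the libraries, and 0 to 1 with 1 library left out, the 1 being Tfeb without WT LPS replicate 3. They stayed at 0 with upper-quartile normalization and with relative log expression scaling. The increase of Lamp1 in WT cells with LPS turned to -0.0153 with upper-quartile normalization. For the genes of the list called after LPS, 112 values kept their direction and side of the threshold and 32 kept the direction only. The same counts were 204 and 11 for LPS in WT, and 228 and 12 for LPS in ACAT1 KO cells. The causes were not tested.

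The labels do not tie WT and ACAT1 KO lines of the same number. Over all genes their deviations correlated at -0.337, 0.650 and 0.644 for unstimulated replicates 1, 2 and 3. After LPS the values were 0.0729, 0.0756 and -0.0497. The replicate block over genotypes gave 8 calls after LPS and 0 unstimulated. Over all genes it gave 151 unstimulated calls against 314, and DESeq2 1721. With the line as a block, LPS calls of the list went from 18 to 26 in WT and from 20 to 25 in ACAT1 KO cells. A term for the libraries with the block, chosen after seeing the data, gave 23 and 26, and the calls of that fit over all genes are not given here. Over all genes the interaction called 31, or 288 with the block and 333 with DESeq2.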
